A study of Mus musculus with 10 samples.

Results

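Transcription factors that drive the erythroid and megakaryocytic lineages, 10 in all, were followed in hematopoietic progenitor cells from mouse bone marrow. The 10 genes are Gata1, Gata2, Klf1, Tal1, Lmo2, Ldb1, Nfe2, Zfpm1, Gfi1b and Fli1. They were chosen by name, with earlier results of these data known. All were found through their Ensembl identifiers among the 38887 in the deposited table. All 10 were among the 14346 genes with enough counts to be tested. All mice carried tumors of Lewis lung carcinoma (LLC), a transplantable mouse cancer line. The vehicle group, which the sample titles call untreated, received vehicle for 2 weeks, and the CK2i group received 60 mg/kg BMS-595, which inhibits the serine/threonine kinase CK2, over the same time. Each group has 5 RNA sequencing libraries, and no library is from a mouse without a tumor. Mouse age, sex, genetic background, the isolation of the progenitors and whether each library came from a separate mouse are not stated in the labels. The p-values therefore reflect the spread among these libraries, part of which may be technical. The design compares inhibitor with vehicle.

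GATA1 and GATA2 are zinc finger proteins that bind the same DNA motif, and GATA2 is gradually replaced by GATA1 as progenitors commit to the erythroid or megakaryocytic lineage. Both act with a complex in which TAL1, a basic helix-loop-helix protein that binds E-boxes with a partner, is bridged by LMO2 to the adaptor LDB1. FOG1, encoded by Zfpm1, and GFI1B tie these factors to corepressors, while KLF1 directs the erythroid program, and FLI1 and NFE2 act in megakaryocytes and platelet formation.

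Promoter sequences of 3 genes are shown because they carry different combinations of the motifs these proteins are known for. Each runs from 250 bases before to 50 bases after a transcription start in RefSeq (GRCm38.p6), and capitals mark every match on either strand to GATAA (GATA factors), CANNTG (E-box), CCNCNCCC (Krüppel-like factors), CCGGAA (ETS factors) or TGANTCA (NF-E2 and AP-1 type). The windows are chrX:7967861-7968160 on the minus strand for Gata1, chr8:84901732-84902031 on the plus strand for Klf1 and chr2:28621933-28622232 on the minus strand for Gfi1b.
Gata1: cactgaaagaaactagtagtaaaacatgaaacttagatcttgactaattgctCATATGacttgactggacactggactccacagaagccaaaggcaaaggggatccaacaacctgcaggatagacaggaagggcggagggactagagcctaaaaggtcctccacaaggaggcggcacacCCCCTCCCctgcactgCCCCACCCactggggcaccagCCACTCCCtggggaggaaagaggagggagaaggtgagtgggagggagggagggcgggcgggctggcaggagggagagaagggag
Klf1: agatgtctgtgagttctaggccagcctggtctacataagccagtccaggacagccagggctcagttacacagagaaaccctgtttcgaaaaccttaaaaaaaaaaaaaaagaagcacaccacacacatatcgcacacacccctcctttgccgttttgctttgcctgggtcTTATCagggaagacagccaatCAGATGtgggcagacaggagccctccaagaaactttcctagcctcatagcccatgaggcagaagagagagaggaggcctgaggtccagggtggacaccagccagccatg
Gfi1b: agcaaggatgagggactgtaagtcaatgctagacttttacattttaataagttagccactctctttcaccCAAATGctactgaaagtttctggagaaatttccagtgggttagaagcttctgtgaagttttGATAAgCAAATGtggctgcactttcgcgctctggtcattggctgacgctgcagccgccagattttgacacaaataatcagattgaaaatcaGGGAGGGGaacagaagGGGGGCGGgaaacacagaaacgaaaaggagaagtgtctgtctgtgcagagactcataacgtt

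The Gata1 window held no GATAA, 1 E-box at position -198 and 3 CCNCNCCC matches at -71, -55 and -34, where positions count from the start site and mark the leftmost base. In the Klf1 window, GATAA stood on the opposite strand at -80 and an E-box at -59. The Gfi1b window held GATAA at -119 followed after 1 base by an E-box at -113, a further E-box at -180, and CCNCNCCC on the opposite strand at -28 and -12. RefSeq windows were matched for 7 of the 10 genes, with 11 start sites in all, and not for Lmo2, Nfe2 and Fli1. GATAA was in 4 of these 11 windows (Klf1, Gfi1b, the first start of Tal1 and the third start of Ldb1), against 25.4% of all 32851 mouse promoter windows. An E-box was in 6 of 11, against 72.3%, and CCNCNCCC was in 9 of 11, against 49.5%. CCGGAA and TGANTCA, in 14.9% and 7.81% of all windows, were in none of the 11. Overlapping matches of one motif were counted as separate sites. These matches describe the letters in the windows and were not tested for binding.

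The libraries held 37569160 to 43636152 estimated counts in the vehicle group and 34127674 to 40811539 in the CK2i group. Of the 14346 genes tested, 1892 (13.2%) differed between groups by edgeR's quasi-likelihood test at a Benjamini-Hochberg adjusted p under 0.05, with 922 higher and 970 lower in CK2i. On the first principal component, with 40.8% of the variance, CK2i 2 and CK2i 5 lay apart at 43.3 and 43.7. The remaining CK2i libraries spanned -4.10 to 12.5, and vehicle spanned -29.6 to -9.37. The calls below are therefore also given without these 2 libraries. The progenitor markers Kit and Cd34 were at 56.9 and 76.5 FPKM (fragments scaled by transcript length and sequencing depth) in vehicle.

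All 10 factors had a lower mean in CK2i than in vehicle, by 0.15 to 0.55 on the log2 scale. Of these, Gata1, Gfi1b, Nfe2, Ldb1 and Lmo2 passed the threshold, so 5 of 10 fell and 0 rose, where 6.76% of all genes tested fell and 6.43% rose. At an unadjusted p under 0.05 the counts were 10 lower and 0 higher, where 16.6% of all genes were lower. By DESeq2, 8 were lower and 0 higher, where 10.2% of all genes were lower. The 10 were chosen with earlier results of these data known, so these shares describe the set and do not test it. The median log2 difference of the 10 was -0.32, against -0.00062 over all genes, of which 50.2% lay below 0. The same 5 genes had groups that did not overlap, with every CK2i library below every vehicle library, as did 5.76% of all genes. The shifts are modest: the largest, of Gfi1b, left 0.685 of the vehicle level, and the smallest, of Lmo2, left 0.899. Without CK2i 2 and CK2i 5, all 10 differences stayed below 0 (-0.08 to -0.40) but 0 of 10 passed the threshold, and 1.20% of all genes did (0.699% lower). In that fit 5 of 10 were lower at an unadjusted p under 0.05, against 10.1% of all genes. With 1 surrogate variable, which correlated with group at 0.70, 0 of 10 and 0.209% of all genes passed, and the median of the 10 was -0.13, with Tal1 (0.012) and Fli1 (0.00499) above 0. In bulk samples like these, fewer cells of a type and less of its RNA per cell cannot be told apart.

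**Figure D1:**
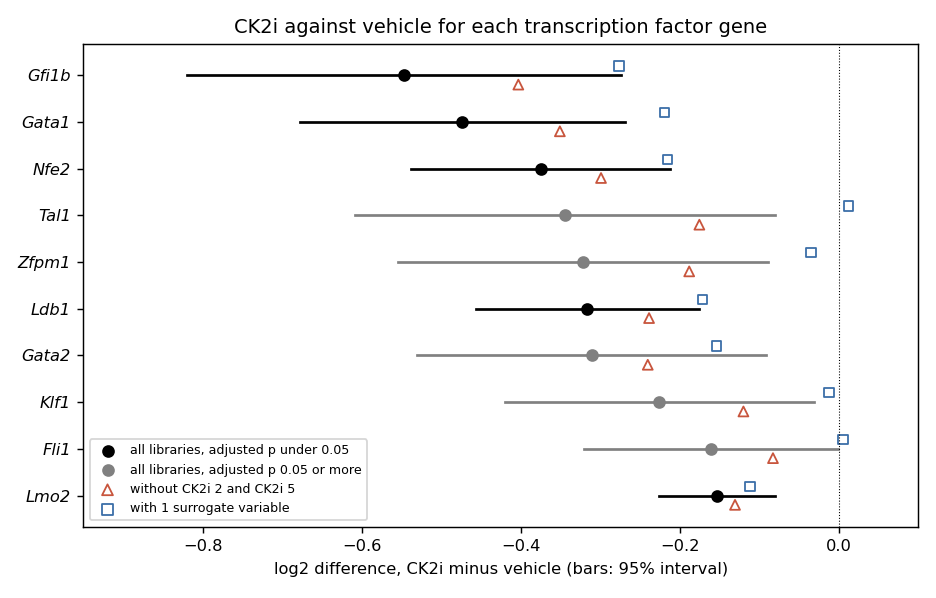
Log2 difference (CK2i minus vehicle, horizontal axis) of each of the 10 factors, with bars for the 95% confidence interval of edgeR's quasi-likelihood fit on 5 libraries per group, black for an adjusted p under 0.05 and grey otherwise. Open triangles leave out CK2i 2 and CK2i 5 and open squares add 1 surrogate variable. All 10 full-data points lie below 0, from Lmo2 at -0.15 to Gfi1b at -0.55, and the triangles lie nearer to 0. The squares lie nearer to 0 again or, for Tal1 and Fli1, just above it.

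Gata1 (ENSMUSG00000031162, chrX:7959260-7978071 on the minus strand of GRCm38) encodes the GATA factor required for red cell and platelet maturation. It stood at 159.8, 138, 148, 152 and 178 CPM (counts scaled to a common library total, with TMM for composition) in vehicle libraries 1 to 5, and at 115, 95.8, 126, 124 and 97.0 CPM in CK2i libraries 1 to 5. CK2i 2 and CK2i 5 were lowest, and the highest CK2i library stayed below the lowest vehicle library. The means were 155 ± 15.2 and 112 ± 14.4 CPM (SD, n = 5 each), and Gata1 fell by 0.47 ± 0.09 (SE) on the log2 scale (edgeR adjusted p = 0.0178). Gata1 passed in each of the 10 fits that left out 1 library. Without both CK2i 2 and CK2i 5 its log2 difference was -0.35 (adjusted p = 0.0627).

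Gata2 (ENSMUSG00000015053, chr6:88193891-88207032, plus strand), the GATA factor of stem cells and early progenitors, ranged from 65.9 to 85.0 CPM in vehicle and from 52.7 to 74.8 CPM in CK2i. Its groups overlapped because of CK2i 3 at 74.8 CPM, while the other 4 CK2i libraries were below all vehicle libraries. The log2 difference was -0.31 ± 0.10 (SE, n = 5 each) and missed the threshold (edgeR adjusted p = 0.0602, 95% interval -0.53 to -0.09). It passed in 3 of 21 fits: by DESeq2, with the replicate number as a block (adjusted p = 0.0328) and without CK2i 3 (adjusted p = 0.00983). Without CK2i 2 and CK2i 5 the log2 difference of Gata2 was -0.24 (edgeR adjusted p = 0.297). Zfpm1 (ENSMUSG00000049577, chr8:122282141-122337251, plus strand), the cofactor through which GATA1 reaches corepressors, ranged from 223 to 296 CPM in vehicle and from 167 to 246 CPM in CK2i. Again the overlap came from CK2i 3, the highest CK2i library, and the other 4 lay below all vehicle libraries. Its log2 difference was -0.32 ± 0.11 (SE, n = 5 each, edgeR adjusted p = 0.0632). A gene model on the same strand, Gm20388, overlaps Zfpm1 and was at 85.3 ± 7.82 and 75.1 ± 14.9 CPM, so reads may be split between them. With the counts of both summed, the log2 difference was -0.29 (adjusted p = 0.0878).

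Of the genes for the TAL1 complex, Ldb1 and Lmo2 passed the threshold. Tal1 had a log2 difference of -0.34, varied more between libraries and did not pass. Ldb1 (ENSMUSG00000025223, chr19:46031570-46045214, minus strand) encodes the self-associating adaptor that joins distant regulatory elements. It stood at 213, 217, 223, 221 and 249 CPM in vehicle 1 to 5 and at 183, 171, 196, 193 and 159 CPM in CK2i 1 to 5. Vehicle 5 was well above the other vehicle libraries, and the groups did not overlap. Ldb1 fell by 0.32 ± 0.06 (SE, n = 5 each) on the log2 scale (edgeR adjusted p = 0.0184) and passed in all 10 fits that left out 1 library, vehicle 5 included, and without both CK2i 2 and CK2i 5 its log2 difference was -0.24 (adjusted p = 0.0673). On the opposite strand, Pprc1 overlaps Ldb1 and was at 75.8 ± 3.49 and 87.8 ± 13.3 CPM (log2 difference 0.21 ± 0.09, adjusted p = 0.112). Whether the counting used strand is not given in the sources used here, and without it reads in the shared stretch cannot be assigned to one of them.

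Lmo2 (ENSMUSG00000032698, chr2:103957986-103981878, plus strand) encodes the LIM-only protein between TAL1 and LDB1. It had the tightest values of the 10: 255, 266, 261, 259 and 258 CPM in vehicle 1 to 5, and 239.6, 224, 243, 230.1 and 231 CPM in CK2i 1 to 5. No CK2i library reached the lowest vehicle library, although the distance between the groups is short. The means were 260 ± 3.92 and 234 ± 7.79 CPM (SD, n = 5 each), and Lmo2 fell by 0.15 ± 0.03 (SE) on the log2 scale (edgeR adjusted p = 0.0216). It passed in 8 of 10 fits that left out 1 library, and with the replicate block the adjusted p was 0.0579. Without CK2i 2 and CK2i 5 its log2 difference was -0.13 (adjusted p = 0.0912). Tal1 (ENSMUSG00000028717, chr4:115056426-115071755, plus strand) encodes the DNA-binding member of the complex. It ranged from 232 to 283 CPM in vehicle and from 154 to 239.7 CPM in CK2i. Only CK2i 3 reached into the vehicle range, and CK2i 2 and CK2i 5, at 154 and 168 CPM, were far below the rest. The log2 difference of Tal1 was -0.34 ± 0.12 (SE, n = 5 each, edgeR adjusted p = 0.0741), and without CK2i 2 and CK2i 5 it was -0.18.

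Gfi1b (ENSMUSG00000026815, chr2:28609450-28621982, minus strand), a zinc finger repressor needed for both lineages and known to repress its own gene, moved most. Its values were 124, 128, 146, 148 and 183 CPM in vehicle 1 to 5 and 103, 82.2, 112, 116 and 85.6 CPM in CK2i 1 to 5. Vehicle 5 was highest and CK2i 2 lowest, and the groups were separated by a narrow gap between 116 and 124 CPM. Gfi1b fell by 0.55 ± 0.12 (SE, n = 5 each) on the log2 scale (edgeR adjusted p = 0.0248). The call was lost in 3 of 10 fits that left out 1 library, namely those without vehicle 4, CK2i 2 or CK2i 5, with an adjusted p of at most 0.0608. Without both CK2i 2 and CK2i 5 the log2 difference was -0.40 (adjusted p = 0.112).

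Klf1 (ENSMUSG00000054191, chr8:84901928-84905291, plus strand), the activator of adult beta-globin and many other red cell genes, ranged from 142 to 185 CPM in vehicle and from 115 to 152 CPM in CK2i. The groups overlapped, with CK2i 3 and CK2i 4 inside the vehicle range. The log2 difference of Klf1 was -0.23 ± 0.09 (SE, n = 5 each, edgeR adjusted p = 0.0993, 95% interval -0.42 to -0.03), and no fit that left out 1 library brought it past the threshold.

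Nfe2 (ENSMUSG00000058794, chr15:103248212-103258403, minus strand) encodes the p45 subunit that pairs with small Maf proteins and is needed for platelet release. It stood at 159.8, 138, 155, 145 and 138 CPM in vehicle 1 to 5 and at 125, 107, 128, 106 and 100.4 CPM in CK2i 1 to 5. All CK2i libraries were below all vehicle libraries. Here CK2i 4 was as low as CK2i 2, unlike in Gata1, Klf1 and Gfi1b, where it was among the highest CK2i libraries. Nfe2 fell by 0.37 ± 0.07 (SE, n = 5 each) on the log2 scale (edgeR adjusted p = 0.0180) and passed in all 10 fits that left out 1 library, with a log2 difference of -0.30 without CK2i 2 and CK2i 5 (adjusted p = 0.0877). Fli1 (ENSMUSG00000016087, chr9:32422204-32542861, minus strand), an ETS factor of megakaryocytes that opposes KLF1, ranged from 154 to 169.98 CPM in vehicle and from 131 to 167 CPM in CK2i. CK2i 1 and CK2i 3 lay inside the vehicle range, and the other 3 below it. Its log2 difference was -0.16 ± 0.07 (SE, n = 5 each), the least certain of the 10 (edgeR adjusted p = 0.141, 95% interval -0.32 to -0.00165).

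On the per-length FPKM scale, the levels of the factors differed. In vehicle the FPKM means ran from Lmo2 at 192 through Ldb1 at 129, Klf1 at 116, Zfpm1 at 108, Gfi1b at 106, Nfe2 at 105, Gata1 at 90.1, Tal1 at 66.2 and Fli1 at 54.5 to Gata2 at 24.0. Of the 9 neighboring pairs in this order, 4 had vehicle ranges that did not overlap: Lmo2 over Ldb1, Gata1 over Tal1, Tal1 over Fli1 and Fli1 over Gata2. The order of Zfpm1, Gfi1b and Nfe2 was not settled: Zfpm1 exceeded Gfi1b in 2 of 5 vehicle libraries, and Gfi1b exceeded Nfe2 in 1 of 5. In CK2i, Zfpm1 exceeded Gfi1b in 5 of 5 libraries. There Gfi1b was at 71.5 FPKM and Gata1 at 65.1 FPKM, against 99.8 FPKM for Klf1 and 172 FPKM for Lmo2.

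**Figure D2:**
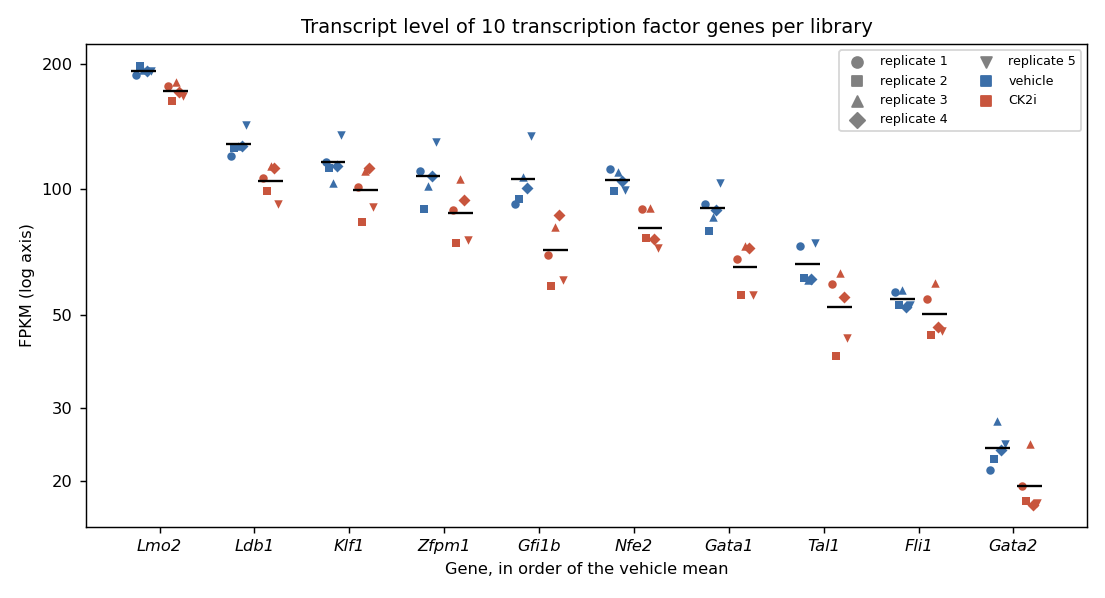
FPKM of the 10 factors in every library on a log axis, genes in order of the vehicle mean, with blue symbols for vehicle, red for CK2i, a shape for each replicate number and a line for each group mean (n = 5 each). Lmo2 is highest and Gata2 lowest in both groups, and the CK2i mean is below the vehicle mean for all 10 genes.

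The CK2i libraries were not alike. As the mean over the 10 factors of the log2 deviation from the vehicle mean, CK2i 2 was at -0.50 and CK2i 5 at -0.48, while CK2i 1, CK2i 3 and CK2i 4 were at -0.26, -0.12 and -0.28, and the vehicle libraries ran from -0.09 to 0.12. CK2i 2 was the lowest of its group for 6 factors, CK2i 5 for 3 and CK2i 4 for 1. CK2i 3 was the highest for 8 and CK2i 4 for 2. Among vehicle libraries, vehicle 5 was the highest for 5 factors. Markers of other cell types, given below, also differ between these libraries.

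**Figure D3:**
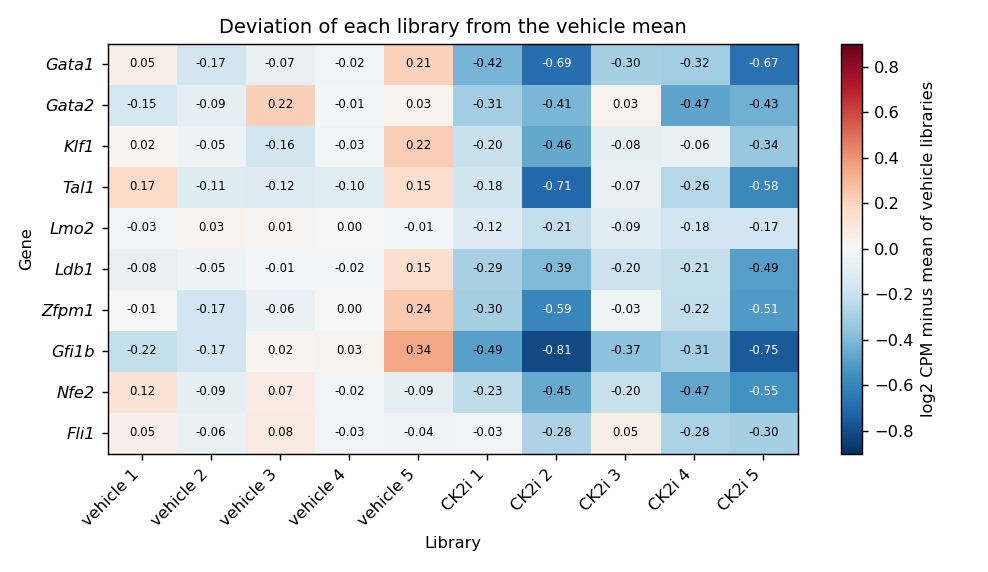
Log2 CPM of each factor (rows) in each library (columns) minus the mean of the 5 vehicle libraries, as a color scale from blue (lower) to red (higher) with the value in each cell. CK2i 2 holds the lowest CK2i value in 6 rows and CK2i 3 the highest in 8.

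Ratios of FPKM within a library compare factors that are known to act against or in place of each other. For Zfpm1 and Gata1 they compare a cofactor with its factor. All are given as a description. The ratio of Gata1 to Gata2 was 3.78 ± 0.51 in vehicle and 3.37 ± 0.47 in CK2i (SD, n = 5 each), and that of Klf1 to Fli1 was 2.14 ± 0.27 and 1.99 ± 0.23, with overlapping groups in both. Against the myeloid factor encoded by Spi1 (PU.1), Gata1 went from 1.84 to 3.81 in the vehicle libraries and from 0.915 to 1.70 in the CK2i libraries, without overlap. In CK2i 2 and CK2i 5 this ratio was 0.915 and 0.936, so Spi1 exceeded Gata1 in those libraries and in no other. Gfi1b to Gfi1, its myeloid and lymphoid paralog, was 9.20 ± 3.69 in vehicle and 3.41 ± 1.29 in CK2i, again without overlap. Each of these genes had groups without overlap on its own, in opposite directions, so their ratio had to separate. Tal1 to its paralog Lyl1 was 1.21 ± 0.17 and 0.929 ± 0.16, and the groups were separated by a small gap between 1.04 and 1.08. Zfpm1 to Gata1 was higher in CK2i, at 1.35 ± 0.06 against 1.20 ± 0.04, and did not overlap either. Reads of Zfpm1 may be split with Gm20388, as given above.

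**Figure D4:**
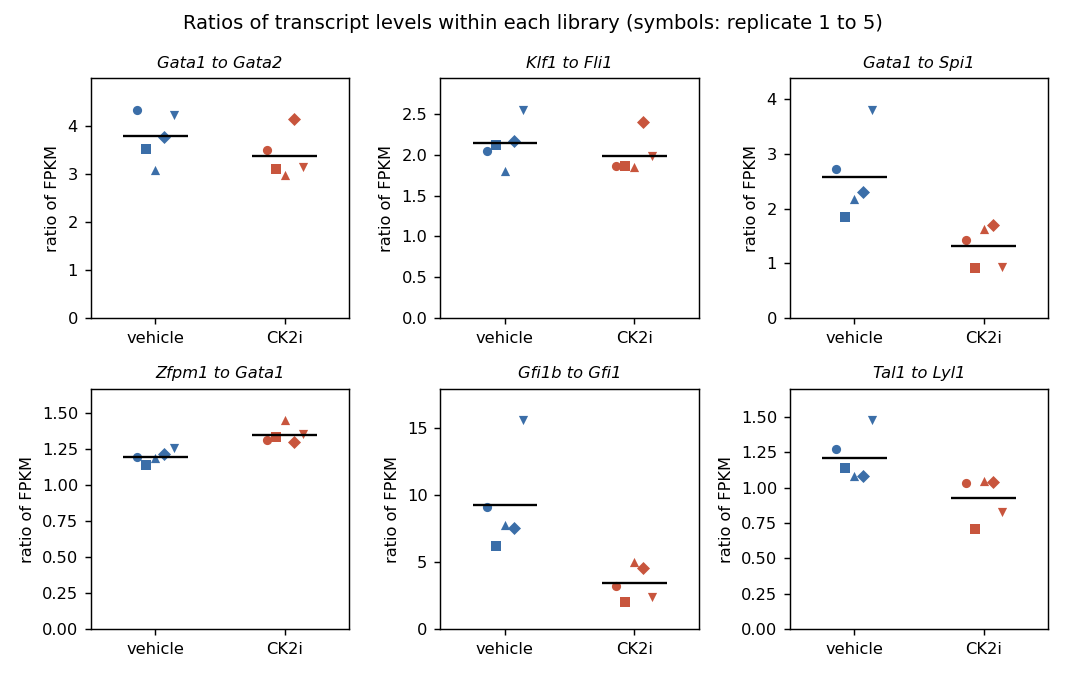
FPKM ratios of 6 pairs of genes in each library, on linear axes from 0, with blue symbols for vehicle, red for CK2i, a shape for each replicate number and a line for each group mean. The groups overlap for Gata1 to Gata2 and Klf1 to Fli1 and are apart for the other 4 pairs.

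Of 43 tested genes in 3 lists of proteins known to work with the factors, 5 (11.6%) passed the threshold, all of them lower in CK2i. Among all genes tested, 13.2% passed in either direction and 6.76% were lower. Of 13 LDB1 complex partners tested, 1 fell, Ssbp3 (log2 difference -0.32, adjusted p = 0.0262), whose product stabilizes LDB1, and 0 rose by edgeR, by DESeq2 or at an unadjusted p under 0.05. The median of the list was 0.02. The E-protein gene Tcf3, whose product pairs with TAL1, was at -0.09, and the values were -0.05 for Cbfa2t3 (the corepressor ETO2) and 0.17 for Runx1, none past the threshold. Of 22 genes for corepressors of FOG1 and GFI1B, 3 fell by edgeR, namely Mta3 (-0.25), Rcor3 (-0.21) and Ctbp1 (-0.19), and 0 rose, while an unadjusted p under 0.05 gave 4 higher and 7 lower (34.6% of all genes in either direction) and DESeq2 gave 2 higher and 4 lower (22.1% of all genes). Kdm1a, the demethylase recruited by GFI1B, was at -0.01. Of 8 small Maf and related CNC genes tested out of 9, 1 fell, Nfe2l2 (-0.22, encoding NRF2), and 0 rose by edgeR, by DESeq2 or at an unadjusted p under 0.05. Mafg and Bach1, a partner of NFE2 and a repressor at the same motif, were at -0.06 and -0.08. Without CK2i 2 and CK2i 5, 0 genes of these 3 lists passed, with 1, 5 and 2 lower and 0 higher at an unadjusted p under 0.05.

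Among 24 tested relatives and opponents out of 25, 3 rose and 1 fell, where 6.43% of all genes tested rose and 6.76% fell. The rises were those of Gfi1 (0.91, adjusted p = 0.0187), Sox6 (0.78, adjusted p = 0.0197) and Spi1 (0.52, adjusted p = 0.0428). The gene that fell was Foxo3 (-0.20, adjusted p = 0.0185). Gfi1 went from 23.0 ± 5.25 to 43.0 ± 9.73 CPM and Spi1 from 41.6 ± 7.90 to 59.5 ± 10.2 CPM (SD, n = 5 each), opposite in sign to Gfi1b and Gata1. Erg was at 0.21, Myb at -0.06 and Gata3 at -0.51 on the log2 scale, none past the threshold. Spi1 kept its call in 3 of 10 fits without 1 library. Without CK2i 2 and CK2i 5 its adjusted p was 0.245, and 0 of the 24 passed.

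Marker genes of the erythroid and megakaryocytic lineages did not move as 1 group. Of 29 erythroid genes tested out of 30, 10 rose and 4 fell, where 6.43% of all genes tested rose and 6.76% fell. The median log2 difference of this list was 0.10. Among the erythroid genes that rose, Slc4a1 (the band 3 anion exchanger, 1.68) and the globin genes Hbb-bs (1.45), Hba-a2 (1.10) and Hbb-bt (1.10) moved most. In vehicle Hbb-bs was at 44.5 ± 13.6 CPM and 81.3 FPKM. The globin genes are near-identical copies, so their single values are uncertain. Those that fell were Car1 (-0.77) and Car2 (-0.37), both carbonic anhydrases, Aqp1 (-0.38, a water channel) and Ermap (-0.30, a membrane protein of red cells). Car1 and Car2 stood at 1187 ± 149 and 1151 ± 128 CPM in vehicle. The erythropoietin receptor gene Epor and the transferrin receptor gene Tfrc were at -0.28 and -0.30 and did not pass (adjusted p = 0.0764 and 0.277). Without CK2i 2 and CK2i 5, 3 erythroid genes rose and 1 fell, where 1.20% of all genes passed in either direction and 0.699% were lower.

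Of 22 megakaryocyte genes, 21 had a negative log2 difference, where 50.2% of all genes tested lay below 0, and the median was -0.55. At the threshold 5 fell, where 6.76% of all genes tested did. Among these 5 were Tubb1 (-0.88, the platelet tubulin), Ppbp (-0.76, a platelet chemokine), Treml1 (-0.75) and Gp9 (-0.65). None of the 22 rose by edgeR, by DESeq2 or at an unadjusted p under 0.05. By DESeq2 13 were lower, where 10.2% of all genes were. At an unadjusted p under 0.05 by edgeR 17 were lower, where 16.6% of all genes were. Pf4, a platelet chemokine, and Itga2b, the platelet integrin, were at -0.71 and -0.47 and did not pass (adjusted p = 0.0535 and 0.114). These 5 calls were each lost in at least 7 of 10 fits that left out 1 library. None remained without CK2i 2 and CK2i 5, where the median was -0.33. In that fit 7 of 22 were lower and 0 higher at an unadjusted p under 0.05, where 10.1% of all genes were lower. Summed over the 22 genes, the vehicle libraries ran from 5504 to 8476 CPM, and CK2i 1 to 5 were at 5723, 3463, 6984, 4716 and 4010 CPM. CK2i 2 and CK2i 5 were lowest here as for most factors, and CK2i 3 was highest.

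**Figure D5:**
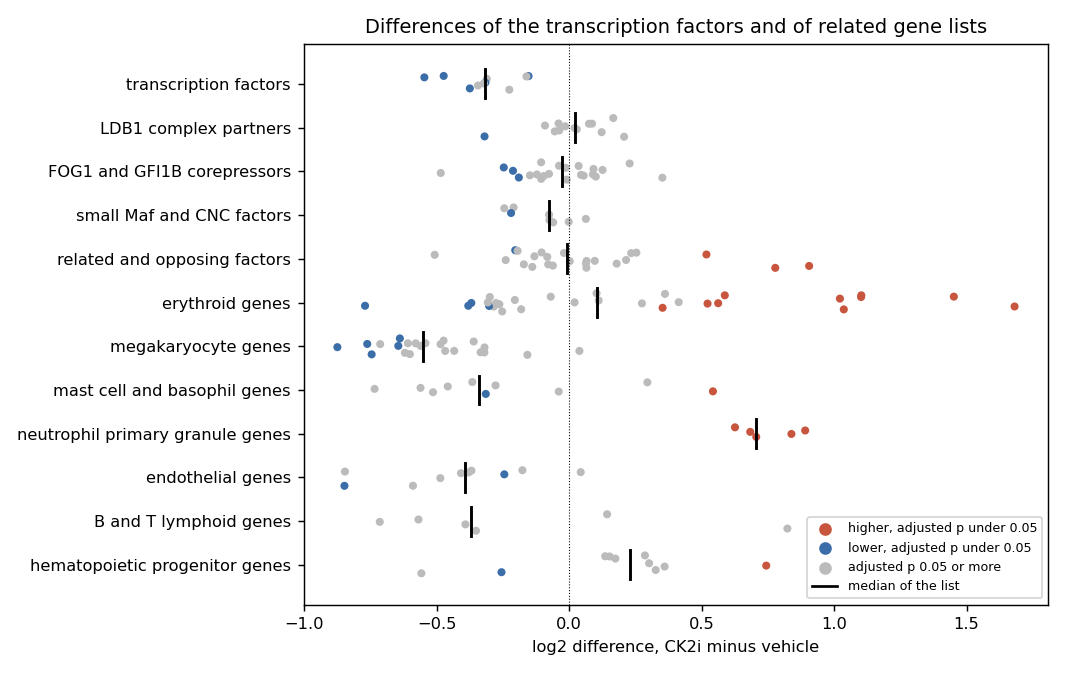
Log2 differences (CK2i minus vehicle, horizontal axis) of the 10 factors and of the tested genes of each list, 1 point per gene, red for higher and blue for lower at an adjusted p under 0.05 and grey otherwise, with a black bar for each list's median. The median is -0.32 for the factors and -0.55 for megakaryocyte genes, and erythroid genes spread to both sides of 0.

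Some markers of other cells in the bone marrow also differed between the groups, where 6.43% of all genes tested rose and 6.76% fell. All 5 neutrophil primary granule genes rose (median 0.71, Mpo 0.63), with sums of 2647 to 5421 CPM in vehicle and 4973 to 8052 CPM in CK2i. CK2i 2 and CK2i 5, the libraries lowest for most of the factors, were the highest in this sum, at 8052 and 7657 CPM. Without them 0 of the 5 passed, and the median was 0.54. Of 10 mast cell and basophil genes tested out of 13, Hdc rose (0.54), Il1rl1 fell (-0.31) and Cpa3 was at -0.28, with sums of 554 to 914 CPM in vehicle and 309 to 686 CPM in CK2i and Tpsab1 at 0 in all 10 libraries. In that list 8 of 10 log2 differences were negative, with a median of -0.34, close to the -0.32 of the factors. The order of the CK2i libraries differed from that of the factors, with CK2i 1 lowest at 309 CPM and CK2i 5 highest at 686 CPM. Without CK2i 2 and CK2i 5 the median of this list was -0.45, against -0.21 for the factors. With 1 surrogate variable these medians were -0.49 and -0.13. Of 10 endothelial genes, 2 fell, Stab2 (-0.85) and Pecam1 (-0.24), with sums of 203 to 235 and 154 to 203 CPM, and the defining gene Cdh5 was at 0.71 and 0.39 CPM. Here 9 of 10 log2 differences were negative, with a median of -0.39. Of 6 lymphoid genes tested out of 12, none passed (1 lower and 0 higher by DESeq2 and at an unadjusted p under 0.05), with sums of 20.8 to 36.4 and 18.1 to 28.6 CPM and a median of -0.37. Of 10 progenitor genes, Fcgr3 rose (0.74), Kit fell (-0.26) and Cd34 was at 0.14, and the median was 0.23. Without CK2i 2 and CK2i 5, 0 genes of the mast cell and basophil, endothelial, lymphoid and progenitor lists passed. The part of these markers in the lower levels of the factors was not tested.

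Genes most like each factor were taken by the correlation of their log2 CPM over the 10 libraries, after the group means were subtracted, among 11734 genes. The closest were Tnk2 for Gata1 (Pearson r = 0.98), Man2c1 for Gata2 (0.96), Pfkm for Klf1 (0.97), Vamp5 for Tal1 (0.98), Csnk1g2 for Lmo2 (0.93), Inafm1 for Ldb1 (0.97), Engase for Zfpm1 (0.98), Stard10 for Gfi1b (0.94), Rftn1 for Nfe2 (0.98) and Tomm40l for Fli1 (0.99). Tnk2 was also the second for Zfpm1, Sppl2b was among the 3 closest for both Ldb1 and Gfi1b, and Car2 was the third for Gata1. The compared genes share the depth and makeup of the same libraries, and 8 to 19 of the 30 pairs were found again when 1 library was left out, so single names in these lists are not stable.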

How the data were processed

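RNA was sequenced from progenitor cells of 5 vehicle and 5 CK2i libraries, prepared with a stranded total RNA kit, per the labels' protocols. Per the submitters' processing notes, the authors used Bowtie2, RSEM 1.2.31, the build mm10 and DESeq2; annotation and strand setting are for this table not given in the sources used here. As deposited by the authors, the estimated counts per gene are whole numbers, so they appear rounded before deposit. The deposited FPKM values divide counts by transcript length and depth and serve here for levels between genes and for ratios. Symbols came from GENCODE M21 (GRCm38), which matched 37570 of 38887 identifiers; 2 empty lines were left out.

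The counts were tested with edgeR 4.0.16 (R 4.3.3): TMM scaling, filterByExpr with a minimum count of 10, quasi-likelihood test on group alone, two-sided, Benjamini-Hochberg over 14346 genes, threshold 0.05. The biological coefficient of variation was 14.2%, so spread between libraries rather than counting error set the precision. Replicates of a group differed by more than sampling noise (chi-square per degree of freedom 10.9 to 73.6). The standard error is the log2 difference over the square root of F. On simulated data the fit recovered 86% of genes raised and 82% of genes lowered 2-fold, with 4 false calls. At 1.5-fold it recovered 68% of raised and 58% of lowered genes. These rates and the false calls describe simulated data with 50 genes changed in each way. They may not carry over to the real libraries, where calls went from 1892 to 30 with 1 surrogate variable, and this was not tested. Smaller changes were not simulated, and no factor reached 1.5-fold, so a missed threshold does not show an unchanged gene. Alternatives used DESeq2 1.42.0, limma 3.58.1 on log2(FPKM + 1) and log2(FPKM + 0.1), sva 3.50.0, other scalings and filters, a replicate block and left-out libraries.

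The members and gene lists were chosen with earlier results of these data known. Named genes are the 10 factors, up to 4 genes per list and direction past the threshold by size, 23 genes named whatever their test, and the 3 genes most like each factor (prior count 2, at least 1 FPKM). Lyl1 and genes that overlap a factor stand beside that factor's values. Some genes under the rule are not reported here. Genes in the closing observations were chosen after their values were seen.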

Additional observations from a re-analysis of the deposited data

Results flagged for a closer look

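In each group of 5 libraries, a library was singled out where its gap to the nearest other library was more than 0.71 of the group's range, which chance gives in about 1 in 20 groups. Of 130 groups examined, 7 had such a library. Among the factors, Gata2 in CK2i 3 was at 74.8 CPM, with the other CK2i libraries at 52.7 to 59.0 CPM. Ldb1 in vehicle 5 was at 249 CPM, with the others at 213 to 223 CPM. The FPKM ratio of Klf1 to Fli1 in CK2i 4 was 2.40, with the others at 1.85 to 1.98. Of other named genes, Hbb-bs was at 68.0 CPM in vehicle 5 (others 35.1 to 43.7 CPM) and at 71.9 CPM in CK2i 3 (others 127 to 147 CPM). Hba-a2 was at 50.9 CPM in CK2i 3, with the others at 76.6 to 83.7 CPM. Cpa3 was at 86.6 CPM in vehicle 3, with the others at 51.9 to 57.6 CPM.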

How the results depend on the processing

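The number of genes past the threshold, 1892 in all, moved to 3176 with DESeq2, 1197 and 1223 with limma on log2(FPKM + 1) and log2(FPKM + 0.1), 1139 with the replicate block, 30 with 1 surrogate variable and 175 without CK2i 2 and CK2i 5. Leaving out 1 library gave 446 (without CK2i 5) to 3198 (without CK2i 3), with 458, 758, 528 and 546 without vehicle 1, 3, 4 and 5 and 617 without CK2i 2. Of the 10 factors, 5 passed, and this became 8 with DESeq2, 0 with 1 surrogate variable, 0 without CK2i 2 and CK2i 5, and 3 (without vehicle 4 or without CK2i 5) to 9 (without CK2i 3) when 1 library was left out. The surrogate variable correlated with group at 0.70, so it takes up part of the group difference itself. With it, 8 of 10 factors stayed below 0 and these values changed sign: Tal1 0.012, Fli1 0.00499, Tcf3 0.020, Runx1 -0.019, Kdm1a 0.052, Mafg 0.030 and Itga2b 0.044. When 1 library was left out, Cbfa2t3 ran from -0.147 to 0.015 (above 0 without CK2i 4) and Kdm1a from -0.029 to 0.014 (above 0 without CK2i 2). Kdm1a also changed sign with limma (0.028 and 0.029) and without CK2i 2 and CK2i 5 (0.023), and the cause was not tested. Same-numbered libraries of the groups had correlated deviations of 0.23, 0.11, 0.068, 0.030 and -0.16, and 3 of 10 libraries correlated best with their own number, so the replicate numbers were not shown to pair the libraries. The block kept 5 factors past the threshold, with Gata2 gained and Lmo2 lost. Chosen after seeing the data were the summed Zfpm1 counts, the ratios by CPM or with libraries left out, and the search for closest genes. All 6 ratios kept the direction of their difference in these alternatives. Of the 30 pairs of closest genes, 25 were kept with RLE scaling, 24 with upper quartile scaling and 6 without CK2i 2 and CK2i 5. CK2i 2 and CK2i 5 were likewise picked for leaving out by their place on the first principal component of these data. RLE and upper quartile scaling and both other filters on low counts left the same 5 factors past the threshold. Depth did not limit the calls on the factors, whose group means were at least 59.1 CPM.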

Other observations

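The erythroid list, which has 10 genes higher and 4 lower in CK2i, was also read by function, with the grouping made after the values were seen. Alas2, the erythroid first enzyme of heme synthesis, rose by 1.02 on the log2 scale from 4.29 to 8.72 CPM (edgeR adjusted p = 0.0257). The log2 differences of Alad and Urod, later enzymes of the pathway, were -0.18 and -0.25 and did not pass. Of the mitochondrial carriers of the list, Slc25a37 rose (0.52, adjusted p = 0.00537) and Slc25a38 did not pass (-0.07). E2f2, Trim10 and Xpo7, known for roles in late red cell maturation, rose by 0.59, 0.56 and 0.35. The membrane skeleton genes Sptb, Ank1, Epb42, Dmtn and Add2 were at 0.11, 0.10, 0.36, 0.41 and -0.28, none past the threshold.

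The basophil protease genes Mcpt8 and Prss34 were abundant, at 153 ± 40.0 and 317 ± 70.2 CPM in vehicle and 91.8 ± 32.3 and 215 ± 73.3 CPM in CK2i (SD, n = 5 each), and did not pass (edgeR adjusted p = 0.0853 and 0.131). Basophils and mast cells are known to use GATA2. In the megakaryocyte list, Nbeal2, a granule gene, had the single positive log2 difference (0.04, adjusted p = 0.781).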
